A study of Setaria viridis with 11 samples.

Results

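A group of 51 leaf transcripts of *Setaria viridis* was defined by its spread among the control plants: each was high in control plants 2, 3 and 4 and low in control plants 1 and 5, as was the transcript of DREB1A, Si011005m. The members were chosen from these control values alone. The counts of read pairs and single reads were summed for each plant and expressed as CPM, the counts scaled to a common library total, over all transcripts other than psbA, the abundant chloroplast transcript Si020824m. A transcript was kept when it had at least 30 counts in each of control plants 2, 3 and 4 and when its lowest CPM there was at least 3 times its highest CPM in control plants 1 and 5. Of 40599 transcripts listed, 10330 had enough counts and 53 met the ratio. Among 5 ethylene-responsive transcripts left out by name, DREB1A Si011005m and DREB1B Si018262m met it too, which left 51 members, 0.494% of those with enough counts. The rule turned round, with control plants 1 and 5 high, took 3 transcripts. No test of this split is given, because the split is what chose the members.

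The plants were wild-type A10, a line of the C4 grass *S. viridis*, sampled at day 28 from the pooled middle parts of fully expanded leaves. Heat-stressed plants (n = 6) spent 2 weeks under a day temperature of 42 °C and a night temperature of 32 °C, and control plants (n = 5) stayed at 28 °C and 20 °C. Each treatment had its own growth chamber, so temperature and chamber cannot be told apart. In whole-leaf RNA, fewer cells of a type and less RNA per cell cannot be told apart either.

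DREB1 proteins, also called CBF, are transcription factors of the AP2/ERF family that bind a short promoter element shared by many cold- and drought-responsive genes, and in Arabidopsis their own transcripts rise quickly and briefly after cold or mechanical disturbance. The AP2/ERF family also holds the ethylene response factors and TINY, a relative of the DREB proteins. XTH22, known in Arabidopsis as a touch-induced gene, encodes an enzyme that cuts and rejoins xyloglucan in the cell wall.

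Of the members, 3 have a name in those lists of the study that were used here, which named transcripts by their Arabidopsis counterparts: DREB1A Si007199m, TINY Si039427m and XTH22 Si007018m. The other 48 are given by identifier, because neither these lists nor the deposited count files pair them with a name.

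Depth did not follow the split of the control plants. Counts outside psbA were 18555605 to 24411265 in heat-stressed plants and 10708257 to 16556078 in control plants, and the lowest and the highest of the control plants were plants 2 and 3, both on the high side. psbA took 46.1% to 48.5% of the counts of a heat-stressed plant, against 69.6%, 68.8%, 61.8%, 63.8% and 69.4% in control plants 1 to 5, where plants 1 and 5 had the highest shares. Entries for reads with several places in the genome, which were not counted, were 20.2% to 30.8% of all entries in heat-stressed plants. In control plants 1 to 5 they were 15.4%, 59.1%, 16.3%, 15.9% and 34.6%. A read can have an entry for each of its places, so these are not shares of reads. Control plants 2 and 5 therefore stood apart in this measure, 1 on each side of the split. No label gives a batch, a date or a position in the chamber, and the part of these measures in the split was not tested. The labels held in the heat marker: Si027442m, the Rubisco activase isoform RCA, was at 66.0 to 133 CPM in heat-stressed plants and 0.439 to 1.03 CPM in control plants. The leaf label held as well, with Rubisco large subunit Si020845m at 47540 to 54922 CPM in heat-stressed plants and 50282 to 68454 CPM in control plants.

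DREB1A Si007199m was at 0.164, 0.559, 0.128, 0.269, 0.148 and 0.0993 CPM in heat-stressed plants 1 to 6, against 0, 28.4, 8.88, 10.2 and 0.786 CPM in control plants 1 to 5. Every heat-stressed plant lay below control plants 2, 3 and 4 and between the pair of low control plants. These levels were 2 to 13 counts in a heat-stressed plant, against 0, 304, 147, 163 and 13 counts in control plants 1 to 5. Over all 11 plants its log2 fold change under heat was -5.76 ± 1.03 (SE) with an adjusted p of 2.26e-04 in edgeR's quasi-likelihood test, adjusted over all tested transcripts by Benjamini-Hochberg as throughout. A fold change against all 5 control plants is an average over plants that differed from 0 to 28.4 CPM, and the rule that chose the transcript used these plants.

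TINY Si039427m was at 1.35, 0.731, 0.469, 0.754, 0.494 and 0.893 CPM in heat-stressed plants 1 to 6, against 0.582, 6.26, 4.65, 7.90 and 0.665 CPM in control plants 1 to 5. The heat-stressed plants spanned the levels of control plants 1 and 5 and none reached those of plants 2, 3 and 4. Its log2 fold change under heat was -2.72 ± 0.57 (SE), with an adjusted p of 8.97e-04 by edgeR.

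XTH22 Si007018m was at 0.614, 0.387, 0.299, 0.485, 0.346 and 0.0496 CPM in heat-stressed plants 1 to 6, against 0.291, 2.89, 2.90, 4.14 and 0.302 CPM in control plants 1 to 5. Heat-stressed plants and control plants 1 and 5 again overlapped, and control plants 2, 3 and 4 stood above both. Its log2 fold change was -2.88 ± 0.63 (SE, adjusted p = 0.00112, edgeR). The heat-stressed plants held only 1 to 15 counts each of this transcript.

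**Figure D1:**
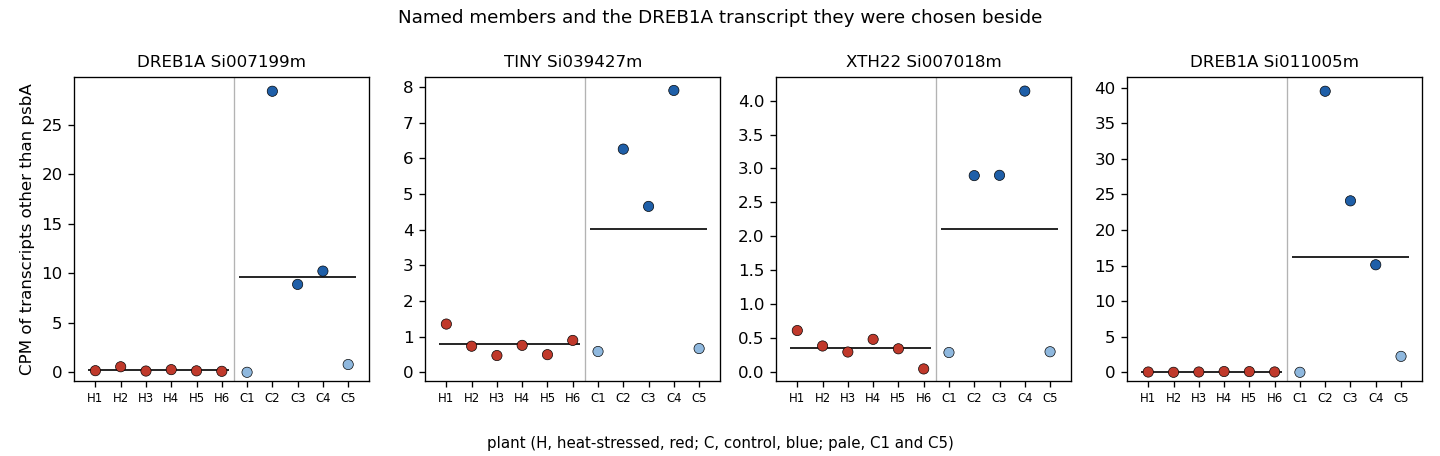
CPM of transcripts other than psbA for the 3 named members and for DREB1A Si011005m, beside which the members were chosen, by plant (H1 to H6, heat-stressed, red; C1 to C5, control, blue, with C1 and C5 pale). Black lines are group means. In each panel C2, C3 and C4 lie above every other plant. C1 and C5 lie at 0 to 2.24 CPM, near the heat-stressed plants, which reach 1.35 CPM.

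The transcript after which the group was drawn, DREB1A Si011005m, was at 0 to 0.108 CPM in heat-stressed plants and 0, 39.5, 24.1, 15.1 and 2.24 CPM in control plants 1 to 5. Like 46 of the members, it was lower in control plant 1 than in plant 5. It had 0 counts in control plant 1 and at most 2 in any heat-stressed plant. Too few plants therefore held enough counts for it to enter the test, so low counts under heat alone did not keep it out.

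The split did not extend to every DREB1 transcript. DREB1B Si018262m followed it, with 0 to 0.248 CPM in heat-stressed plants and 0, 11.3, 4.29, 4.83 and 0.423 CPM in control plants 1 to 5. CBF1 Si030869m, also left out by name, followed it at a smaller ratio of 2.07 and with as few as 16 counts in a high plant. It was at 0 to 0.205 CPM in heat-stressed plants and 0.218, 4.48, 2.96, 1.00 and 0.484 CPM in control plants 1 to 5. DREB1B Si030998m did not: it was at 0.981 to 3.40 CPM in heat-stressed plants and 16.4, 33.5, 29.1, 11.7 and 17.0 CPM in control plants 1 to 5, and control plant 4 was the lowest. DREB1C Si031001m was at 0.148 to 1.93 CPM in heat-stressed plants and 34.1, 57.2, 48.9, 16.4 and 28.9 CPM in control plants 1 to 5. DREB1C Si032956m was at 0.213 to 2.50 CPM in heat-stressed plants and 36.2, 55.8, 54.1, 22.6 and 31.8 CPM in control plants 1 to 5.

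These 3 transcripts were high in every control plant, highest in plants 2 and 3 and lowest in plant 4. No heat-stressed plant reached any control plant in them, and in the order given they had log2 fold changes of -3.86, -6.13 and -5.59 (SE 0.36, 0.53 and 0.44, adjusted p of 6.00e-07, 2.75e-07 and 1.33e-07, edgeR). Reads that fit several copies of a gene family were not counted, so the division of reads among near-identical DREB1 copies is uncertain.

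**Figure D2:**
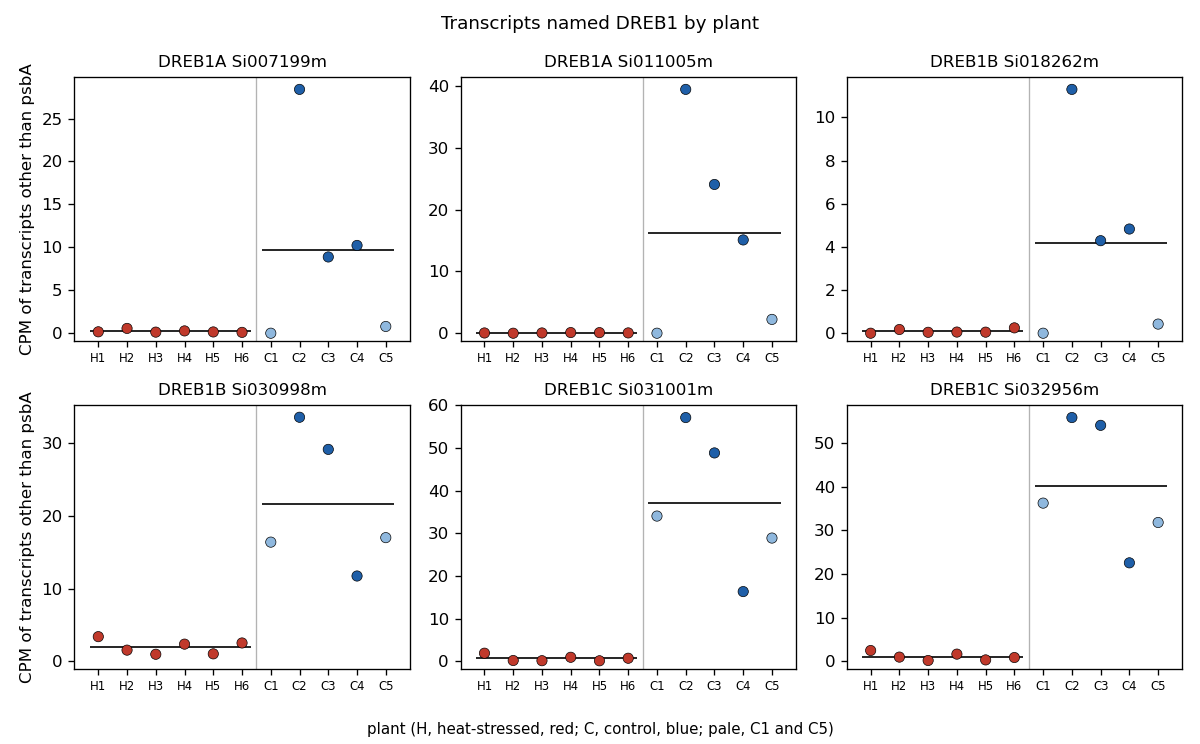
CPM of transcripts other than psbA for the 6 transcripts named DREB1 in the study's list, by plant (H1 to H6, heat-stressed, red; C1 to C5, control, blue, with C1 and C5 pale). Black lines are group means. In the upper panels C1 and C5 lie at 0 to 2.24 CPM, near the heat-stressed plants, and in the lower panels every control plant lies above every heat-stressed plant.

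The members ranged widely in level. Their mean CPM in heat-stressed plants was 0 to 60.9 with a median of 1.92. In control plants 2, 3 and 4 it was 2.61 to 277 with a median of 14.9, and 35 members were above 10 CPM. In control plants 1 and 5 it was 0.121 to 78.8 with a median of 1.496. The ratio of the lowest high plant to the highest low plant had a median of 4.15, and 19 members were above 5.

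The most abundant member, Si021875m, was at 25.1, 19.4, 27.2, 43.4, 54.0 and 33.6 CPM in heat-stressed plants 1 to 6, against 67.3, 275, 271, 286 and 90.4 CPM in control plants 1 to 5. It was the member nearest to the limit of the rule, with a ratio of 3.00. All heat-stressed plants were below all control plants, and its log2 fold change was -2.93 ± 0.39 (SE, adjusted p = 1.70e-05, edgeR).

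Si010796m, the next in level, was at 5.41, 1.25, 0.981, 2.53, 1.93 and 2.83 CPM in heat-stressed plants 1 to 6, against 12.3, 226, 136, 143 and 38.8 CPM in control plants 1 to 5. Here too the groups did not overlap, and control plant 5 was above control plant 1. Its log2 fold change was -5.88 ± 0.68 (SE, adjusted p = 4.22e-06, edgeR).

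By CPM without psbA, Si005721m lay in heat-stressed plants near the level of the low control plants. It was at 10.3 to 18.3 CPM (median 14.5) under heat and 16.4, 130.0, 69.5, 96.8 and 19.4 CPM in control plants 1 to 5. With library sizes adjusted by TMM factors, as in the test, every heat-stressed plant was below every control plant in it. Si009730m and Si009658m were likewise below control plants 2, 3 and 4 in every heat-stressed plant, but above control plant 1. Si009730m was at 7.05 to 13.4 CPM under heat and 4.08, 74.1, 37.0, 33.4 and 7.08 CPM in control plants 1 to 5. Si009658m was at 7.72 to 19.4 CPM under heat and 2.84, 34.1, 31.4, 79.7 and 7.08 CPM in control plants 1 to 5, and it differed from the others in being highest in control plant 4.

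All 3 were called lower under heat by edgeR, with log2 fold changes of -2.56 for Si005721m, -2.18 for Si009730m and -1.63 for Si009658m (adjusted p of 2.08e-04, 0.00332 and 0.0246). The call of Si009658m was lost without control plant 4 (adjusted p = 0.127) and without heat-stressed plant 1, 2 or 3 (adjusted p of 0.0542, 0.0516 and 0.0519). It was also lost when counts were scaled by library size without psbA (log2 fold change -1.28, adjusted p = 0.0639) or by library size only (-0.69, adjusted p = 0.294). The call of Si009730m was lost by library size only (adjusted p = 0.0616). With plant number as a replicate block in edgeR, the calls of Si009658m and Si009730m were lost too (adjusted p of 0.151 and 0.0615).

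The largest ratios among the control plants were those of Si020220m, Si017178m, Si011225m and Si017761m, at 27.3, 15.8, 13.7 and 12.9. Si020220m was at 0.162 to 2.22 CPM in heat-stressed plants and 0.218, 20.0, 6.83, 5.96 and 0.0605 CPM in control plants 1 to 5. Si011225m was at 0.0496 to 0.516 CPM in heat-stressed plants and 0, 4.02, 3.32, 4.08 and 0.242 CPM in control plants 1 to 5. Si017761m was at 4.47, 1.38, 1.83, 3.45, 14.9 and 4.17 CPM in heat-stressed plants 1 to 6, against 0.582, 66.6, 42.3, 37.4 and 2.90 CPM in control plants 1 to 5.

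For Si017761m and Si020220m heat-stressed plant 5 was well above the other heat-stressed plants, yet below control plants 2, 3 and 4. Si017761m and Si020220m were called lower under heat, with log2 fold changes of -2.96 and -3.64 (SE 0.87 and 0.98, adjusted p of 0.00826 and 0.00500, edgeR). With plant number as a replicate block in edgeR, neither was called (adjusted p of 0.156 and 0.0614). Si011225m had too few counts to be tested, and Si017178m is described with the members that were high under heat.

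At the edge of the rule, Si021875m, Si036626m and Si039113m lay just inside, with ratios of 3.00, 3.04 and 3.05. Si036626m was at 1.62 to 4.86 CPM in heat-stressed plants and 0.291, 6.16, 3.87, 9.47 and 1.27 CPM in control plants 1 to 5, so both treatments overlapped. Si039113m was at 1.24 to 2.62 CPM in heat-stressed plants and 4.37, 47.9, 22.7, 20.8 and 6.83 CPM in control plants 1 to 5, with no overlap, and its log2 fold change was -3.81 ± 0.52 (SE, adjusted p = 2.10e-05, edgeR). RRTF1 Si014237m, Si027203m and Si034366m lay just outside, with ratios of 2.92, 2.92 and 2.88. RRTF1 is an ethylene-responsive transcription factor known in Arabidopsis for its response to redox changes. It was at 0 to 0.248 CPM in heat-stressed plants and 1.38, 11.6, 9.54, 13.5 and 3.27 CPM in control plants 1 to 5, the pattern of the members at a slightly smaller ratio. The count of 51 therefore depends on the limit: a ratio of at least 2 took 144 transcripts and one of at least 5 took 19.

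Within the limits set by the rule, the members did not share 1 profile over the control plants. Of the 51, 30 were highest in control plant 2, 19 in plant 4 and 2 in plant 3. Among all 1498 transcripts with plants 2, 3 and 4 above plants 1 and 5, 30.6% were highest in plant 2, 53.9% in plant 4 and 15.6% in plant 3. Plant 3 was the lowest of the high plants for 32 members, for which no share over the 1498 transcripts was computed. On the low side, plant 5 was above plant 1 for 46 members, against 66.2% of those 1498 transcripts.

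The 5 members most like DREB1A Si011005m over the 5 control plants, by Pearson correlation of log2(CPM + 1), were Si017856m, Si017761m, Si010796m, Si009730m and Si022872m, with r of 0.999, 0.992, 0.991, 0.987 and 0.987. Since the rule itself fixed the contrast of plants 2, 3 and 4 with plants 1 and 5, high correlations follow from it and carry no test. All 5 were highest in control plant 2, as was Si011005m. Si017856m was at 0.199 to 0.988 CPM in heat-stressed plants and 0.873, 47.3, 30.3, 21.0 and 3.45 CPM in control plants 1 to 5. Under heat its log2 fold change was -5.86 ± 0.85 (SE, adjusted p = 3.52e-05, edgeR). Si022872m was at 1.07 to 2.95 CPM in heat-stressed plants and 5.82, 60.1, 34.2, 29.98 and 8.95 CPM in control plants 1 to 5. Under heat its log2 fold change was -4.56 ± 0.55 (SE, adjusted p = 6.44e-06, edgeR), and its heat-stressed plants were below all control plants.

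Under heat most members were low in every plant. All 6 heat-stressed plants were below control plants 2, 3 and 4 for 42 of the 51 members, a pattern that 21.6% of the 10330 transcripts with enough counts showed. For 9 members they were below all 5 control plants, as for 17.5% of those transcripts, and for the other 33 of the 42 at least 1 of them reached the level of control plant 1 or 5. For 0 members they were above all control plants, against 30.2%. The members were chosen for high values in control plants 2, 3 and 4, so these counts describe them and are no test.

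Against the low control plants the heat level lay on either side. The heat mean was below the mean of control plants 1 and 5 for 22 members and above it for 29. The median of this ratio over the members was 1.22, while the median ratio to the mean of control plants 2, 3 and 4 was 0.122. The first ratio depended on the scaling: it was 0.908 with library sizes adjusted by TMM factors and 2.11 when psbA was counted in the library. The median ratio to control plants 1 and 5 was 1.01, 1.24, 0.613, 1.21, 1.11 and 0.840 in heat-stressed plants 1 to 6 taken singly.

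Summed over the members, the level was 294.9, 389, 150.8, 292.5, 462.1 and 362.7 CPM in heat-stressed plants 1 to 6, against 178.2, 1638, 1099, 1316 and 273.6 CPM in control plants 1 to 5. Control plants 1 and 5 thus lay within the range of the heat-stressed plants, and control plants 2, 3 and 4 above it. The place of control plant 1 rested on Si021875m: without that member the sums were 123.6 to 408.2 CPM in heat-stressed plants and 110.9, 1364, 827.7, 1031 and 183.3 CPM in control plants 1 to 5. By CPM without psbA, the median over the members placed both low control plants within the heat range. It was 2.25, 1.38, 0.981, 1.83, 2.22 and 1.54 CPM in heat-stressed plants 1 to 6 and 1.24, 22.2, 9.48, 13.4 and 2.24 CPM in control plants 1 to 5. Control plant 5 was only just within that range. With library sizes adjusted by TMM factors, its median was above that of every heat-stressed plant.

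**Figure D3:**
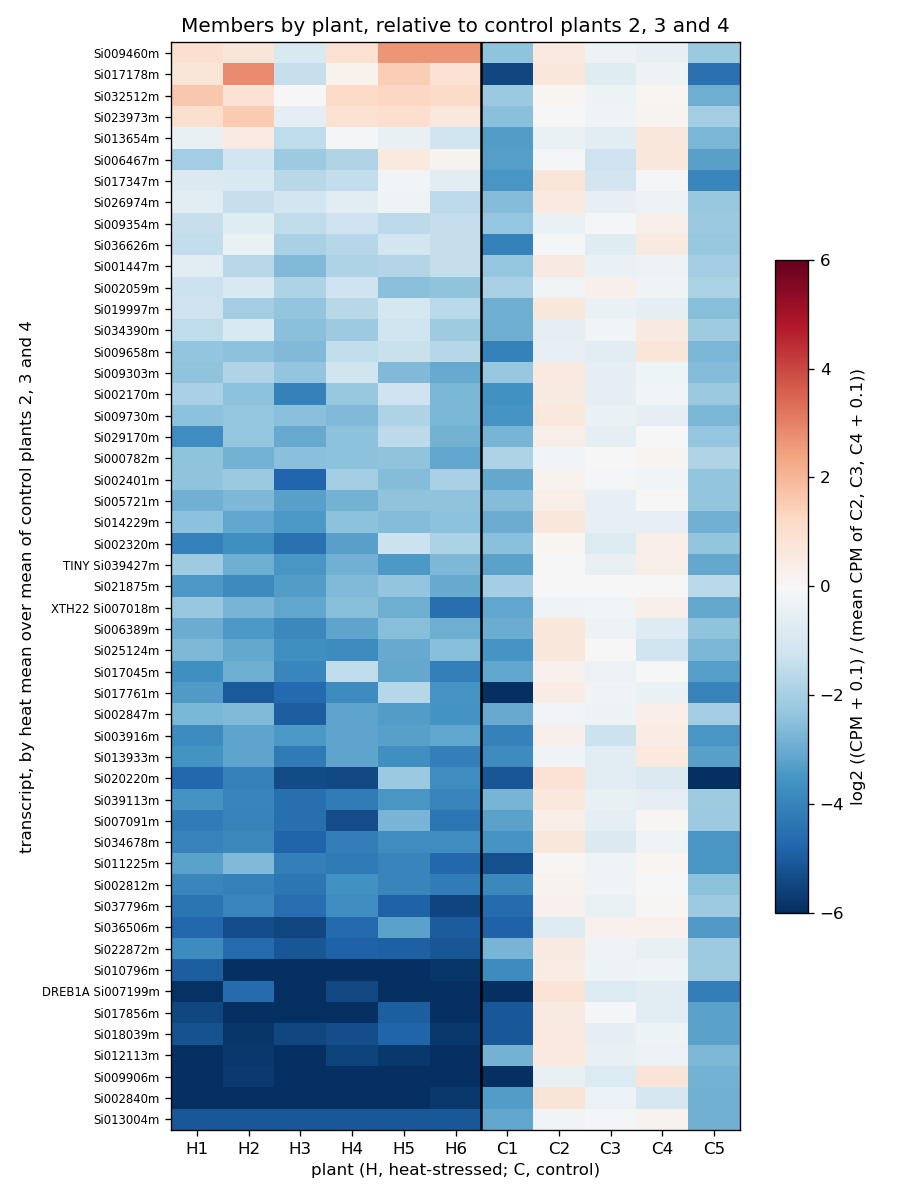
Each of the 51 members (rows) in each plant (columns; H1 to H6, heat-stressed; C1 to C5, control), as the log2 ratio of its CPM to its mean CPM in C2, C3 and C4, with 0.1 CPM added to both. Blue is below and red above that mean. Rows are ordered by the ratio of the heat mean to the mean of C2, C3 and C4, and the 4 at the top are the members whose heat mean was above the mean of C2, C3 and C4.

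In the comparison of all heat-stressed with all control plants by edgeR's quasi-likelihood test, 45 members had enough counts to be tested: 36 were lower under heat, 2 were higher and 7 were not called. Of all 18065 transcripts tested, 30.9% were lower and 32.2% were higher. The median log2 fold change was -2.56 over the members and 0.02 over all transcripts tested. Because the members' control values entered both the rule and this contrast, nothing is read from the excess of lower calls. The DESeq2 Wald test without that filter called 42 of all 51 members lower and 2 higher.

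The 6 members not tested, Si002812m, Si009906m, Si011225m, Si013004m, Si017045m and Si018039m, were all low under heat, with heat-stressed plants at or below 1.08 CPM. The 9 tested members that were not called lower were the same 9 whose heat-stressed plants overlapped control plants 2, 3 and 4.

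**Figure D4:**
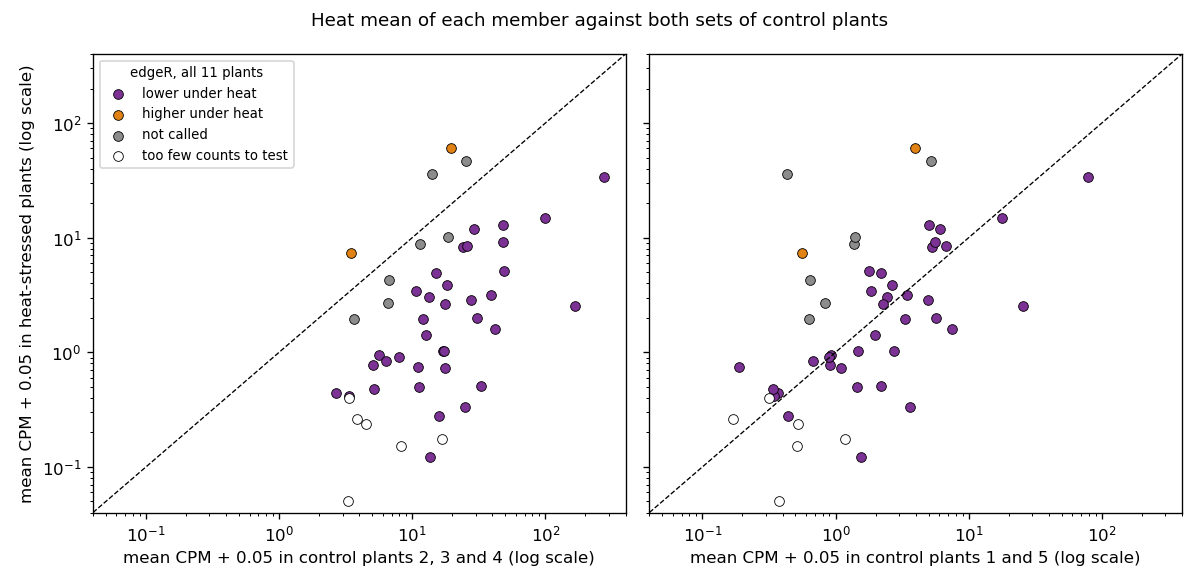
Mean CPM of each member in heat-stressed plants (vertical axis) against its mean in control plants 2, 3 and 4 (left) and in control plants 1 and 5 (right), both axes on a log scale with 0.05 CPM added. Colours give the edgeR call over all 11 plants, white points had too few counts to test, and the dashed line marks equal levels. On the left 47 of 51 members lie below the line, and on the right 22 lie below and 29 above.

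The lowest heat levels relative to control plants 2, 3 and 4 were those of Si013004m, Si002840m, Si009906m and Si012113m. Si013004m had 0 counts in all 6 heat-stressed plants and 4, 31, 51, 61 and 6 counts in control plants 1 to 5. Set against a floor of 3 counts over the whole heat group, 0.0231 CPM, it was at least 90.6-fold lower under heat than the mean of the control plants. Si002840m had 1, 1, 1, 1, 2 and 3 counts in heat-stressed plants 1 to 6, against 17, 249, 179, 108 and 29 counts in control plants 1 to 5.

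For both the groups did not overlap. Si012113m was at 0.128 to 0.431 CPM in heat-stressed plants and 3.42, 37.0, 18.2, 19.2 and 3.75 CPM in control plants 1 to 5, and its log2 fold change was -6.25 ± 0.66 (SE, adjusted p = 2.07e-06, edgeR). Its heat-stressed plants were below even the low control plants. Si009906m was at 0 to 0.215 CPM in heat-stressed plants and 0, 12.4, 9.48, 28.2 and 2.24 CPM in control plants 1 to 5, so control plant 1 lay with the heat-stressed plants.

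In 4 members the heat mean was above the mean of control plants 2, 3 and 4. Si009460m was at 37.7, 32.2, 10.5, 37.4, 124 and 124 CPM in heat-stressed plants 1 to 6, against 3.64, 29.3, 15.6, 13.7 and 4.11 CPM in control plants 1 to 5. Heat-stressed plants 5 and 6 were the highest and plant 3 lay below control plants 2, 3 and 4. Its log2 fold change was 1.82 ± 0.66 (SE, adjusted p = 0.0262, edgeR), but the call was lost without control plant 1, 4 or 5 (adjusted p of 0.0573, 0.0505 and 0.0617). It was also lost without heat-stressed plant 5 or 6 (adjusted p of 0.0598 and 0.0618). With plant number as a replicate block in edgeR, it was lost too (adjusted p = 0.17).

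Si032512m was at 10.5, 6.24, 3.37, 7.60, 8.25 and 7.59 CPM in heat-stressed plants 1 to 6, against 0.655, 3.74, 2.72, 3.76 and 0.363 CPM in control plants 1 to 5. Only heat-stressed plant 3 overlapped the high control plants. Its log2 fold change was 1.32 ± 0.46 (SE, adjusted p = 0.0212, edgeR). The call was lost with plant number as a replicate block in edgeR (adjusted p = 0.0653).

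Si023973m was at 49.9, 75.6, 17.2, 47.5, 51.6 and 39.2 CPM in heat-stressed plants 1 to 6, against 4.44, 25.9, 22.0, 28.5 and 5.93 CPM in control plants 1 to 5. All heat-stressed plants but plant 3 were above all control plants. It did not pass the test (log2 fold change 1.04 ± 0.44, adjusted p = 0.0528, edgeR), though it did without control plant 2, control plant 4 or heat-stressed plant 3 (adjusted p of 0.0315, 0.0377 and 0.0209). It also passed with upper-quartile factors (adjusted p = 0.0373), library size only (0.00115), library size without psbA (0.0113), no filter on low counts (0.0323) or at least 10 counts in every plant (0.0372).

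Si017178m was at 23.5, 103, 5.29, 16.4, 39.7 and 26.0 CPM in heat-stressed plants 1 to 6, against 0.218, 22.4, 8.58, 11.4 and 0.544 CPM in control plants 1 to 5. Heat-stressed plant 2 was far above the others and plant 3 was below control plants 2, 3 and 4. It did not pass the test (log2 fold change 1.64 ± 0.84, adjusted p = 0.102, edgeR), but did without control plant 2 (adjusted p = 0.0289), by library size only (0.00918) and by library size without psbA (0.0395). All 4 members were above both low control plants in all 6 heat-stressed plants.

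The other 5 members that overlapped the high control plants, Si006467m, Si013654m, Si017347m, Si026974m and Si036626m, had heat means of 0.406 to 0.761 times the mean of control plants 2, 3 and 4. Their log2 fold changes were -1.05 to -0.14, and none was called. By library size only, those of Si006467m, Si013654m, Si017347m and Si026974m were positive, at 0.61, 0.83, 0.45 and 0.36, and again not called. Si036626m was called lower without control plant 1 (adjusted p = 0.0138). Si006467m was at 1.47, 2.97, 1.37, 1.83, 9.98 and 7.64 CPM in heat-stressed plants 1 to 6, against 0.582, 6.26, 2.78, 10.8 and 0.605 CPM in control plants 1 to 5, with heat-stressed plants 5 and 6 apart from the rest as in Si009460m.

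The heat-stressed plants played no part in the rule, so the way members varied among them is a separate measurement. Over the 6 heat-stressed plants, 49 members had at least 10 counts in sum. The median Spearman correlation over their 1176 pairs was 0.314, and 75.1% of pairs were above 0. Among all 23367 transcripts with that many counts, the median was 0.0285 and 53.0% of pairs were above 0. The pairs share libraries and their depth, and n is 6 plants, so this is a description.

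The members' correlation rested largely on heat-stressed plant 3. Without it the median over the members was 0.10 and over all transcripts 0, and 53.0% and 49.9% of pairs were above 0. Pairs at exactly 0 were not handled alike in these shares, so their difference is not read. Of the 49 members, 28 were lowest in plant 3 and 0 were highest there, against 24.0% and 11.9% of all transcripts with that many counts. Plant 5 was the highest for 21 members, against 17.2% of all transcripts, and plant 2 for 12 members, against 26.4%. Plant 3 was not the shallowest library, with 23442700 counts outside psbA. Among heat-stressed plants it had the largest shares of single reads (13.0%) and of entries for reads with several places (30.8%). Their part in the low levels was not tested.

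The members also varied more among heat-stressed plants than most transcripts did. In the 21 members with at least 30 counts in every heat-stressed plant, the coefficient of variation had a median of 0.405, against 0.159 over the 12814 transcripts with that many counts. The highest plant was 1.77 to 19.4 times the lowest in these members, with a median of 3.10. The 12814 transcripts were not matched to the members in level, and counting error is larger at low counts. The members were also chosen for a large spread, though among control plants.

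**Figure D5:**
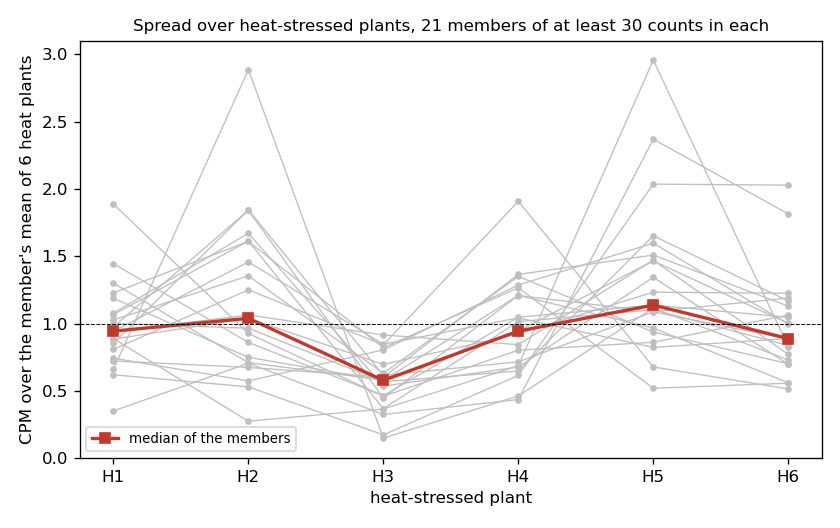
CPM of each of the 21 members with at least 30 counts in every heat-stressed plant, divided by its mean over the 6 heat-stressed plants (H1 to H6). Each grey line joins the values of 1 transcript, red squares are the median over the members, and the dashed line marks the mean. The median was 0.577 in H3 and 0.888 to 1.14 in the others.

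In those hormone and oxidative stress lists of the study that were used here, 137 transcripts had enough counts. ABA and auxin lists were not among them. Control plants 2, 3 and 4 were above plants 1 and 5 in 37 of the 137 (27.0%), against 14.5% of all 10330 transcripts with enough counts. They were below in 15 (10.95%), against 14.3% of all. Of the 34 ethylene-responsive transcription factors listed, 28 had enough counts: 9 (32.1%) lay above in this way, 1 (3.57%) lay below, against 14.3% of all, and 2 were members. The 9 include these members, DREB1A Si007199m and TINY Si039427m, and also DREB1A Si011005m and DREB1B Si018262m, which the rule left out by name. The rule was built on this split, so the shares of 32.1% and 27.0% are partly fixed by it. In the heat comparison, 19 of the 29 tested were lower and 0 were higher by edgeR (1 at an unadjusted p under 0.05, and 1 by the DESeq2 Wald test), and the median log2 fold change of the list was -1.63, against 30.9% lower, 32.2% higher and a median of 0.02 over all transcripts tested.

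All 5 transcripts named JAZ1, a repressor of jasmonate signalling in Arabidopsis, had control plants 2, 3 and 4 above plants 1 and 5. So did 14.5% of all transcripts with enough counts. The ratios of the 5 were 1.05 to 2.03, below the limit for a member. The one with the largest ratio, Si037702m, was at 3.67 to 10.7 CPM in heat-stressed plants and 31.2, 155, 107, 124 and 52.5 CPM in control plants 1 to 5. It was below every control plant in every heat-stressed plant and its log2 fold change was -4.02 ± 0.38 (SE, adjusted p = 7.16e-07, edgeR). Of the 5, 4 were lower under heat, as were 30.9% of all transcripts tested, and Si037350m was not called. The list of jasmonate-inducible transcripts did not share this. Of its 7 transcripts with enough counts, 1 had control plants 2, 3 and 4 above plants 1 and 5. Under heat 2 of its 10 tested were lower and 5 were higher, against 32.2% higher of all transcripts tested.

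In the 4 lists of salicylic acid synthesis, perception and targets, 9 of the 22 transcripts with enough counts (40.9%) had control plants 2, 3 and 4 above plants 1 and 5 and 0 had them below, against 14.5% and 14.3% of all. The other 13, WRKY53 among them, were mixed. The 2 with the largest ratios are given here. WRKY18 Si006914m, a transcription factor of defence responses in Arabidopsis, was at 0.248 to 1.08 CPM in heat-stressed plants and 1.97, 32.5, 10.99, 31.2 and 4.11 CPM in control plants 1 to 5, a ratio of 2.67. NSL1 Si021498m, a repressor of salicylic acid synthesis in Arabidopsis, was at 1.72 to 4.71 CPM in heat-stressed plants and 7.13, 35.2, 27.8, 30.2 and 13.0 CPM in control plants 1 to 5, a ratio of 2.14. In both, as in Si037702m, control plant 5 lay above control plant 1 and every heat-stressed plant lay below both.

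WRKY18 Si006914m and NSL1 Si021498m were lower under heat, with log2 fold changes of -5.35 and -3.31 (SE 0.70 and 0.40, adjusted p of 1.39e-05 and 6.82e-06, edgeR). The 3 transcripts listed as salicylic acid-dependent promoters of expansion, a pair named XTH22 and 1 named EXL1, were all lower under heat (30.9% of all transcripts tested were), and 2 of them were higher in control plants 2, 3 and 4 than in 1 and 5. The pair differed in detail: XTH22 Si014232m was at 5.20 to 7.99 CPM in heat-stressed plants and 26.8, 43.8, 51.5, 47.1 and 31.5 CPM in control plants 1 to 5. Here, unlike in the member Si007018m, the low control plants stayed above all heat-stressed plants.

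Of the oxidative stress transcripts, 39 had enough counts: 4 (10.3%) were higher in control plants 2, 3 and 4 than in plants 1 and 5 and 9 (23.1%) were lower, against 14.5% and 14.3% of all transcripts with enough counts. No list used here other than the ethylene-responsive factors and the salicylic acid-dependent promoters of expansion held a member. The lists were chosen by the study and named by Arabidopsis counterpart, and these counts carry no test.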

How the data were processed

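Leaf RNA of 11 plants was sequenced after removal of ribosomal RNA. According to the methods, reads were trimmed with Trimmomatic, mapped by TopHat2 onto *S. italica*, the domesticated relative, and assigned to exons by HTSeq in union mode. Reads with several places were held in a summary line and not counted. The deposited files hold raw counts per transcript, made by the authors without normalization, in 2 files per plant (read pairs and single reads, 22 in all), which were summed. Summary lines, 30.3% to 67.3% of the entries of a plant, were left out. CPM were computed without psbA.

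Heat was compared with control by edgeR 4.0.16 (R 4.3.3) across all transcripts passing filterByExpr, with TMM factors, the quasi-likelihood test and Benjamini-Hochberg adjustment at 0.05; DESeq2 1.42.0 was an alternative. The fit was tested on simulated counts. It called 63.5% of simulated log2 changes of 1 and 97.8% of those of 2, all in the right direction. Of its calls, 3.40% fell on unchanged transcripts. The simulation gave all control plants the same mean level and changed few transcripts, so it does not cover a split of the control plants as in the members. Against TMM factors, library size alone moved the median log2 fold change of all transcripts by 1.05, and library size without psbA by 0.39. Total counts were 34731849 to 47441261 in heat-stressed plants and 34362084 to 54011056 in control plants; this sets counting error only. Replicates are separate plants.

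The members and lists were chosen with earlier results of these data known. Transcripts described singly were those with a name, the 6 highest in control plants 2, 3 and 4, the 4 largest ratios, the 4 highest and 4 lowest heat levels relative to those plants, the 5 most like DREB1A, and 3 on each side of the limit. Other transcripts (the remaining DREB1 copies, CBF1, JAZ1, WRKY18, NSL1, XTH22 Si014232m, WRKY53, Si006467m, Si013654m, Si017347m, Si026974m) were named after their values were seen. Sequences and positions were not used here.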

Additional observations from a re-analysis of the deposited data

Results flagged for a closer look

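In 5 of 50 groups examined, a single plant stood apart from its group by a gap that was large relative to the group's whole range. The groups were the heat-stressed or the control plants, for each named member and for the sum and median of the members. Chance gives about 1 such group in 20 for independent, normally distributed values, which these CPM need not be. The rule set control plants 2, 3 and 4 above plants 1 and 5, so a single low control plant could not be flagged. All 5 were heat-stressed plants that lay above their group. DREB1A Si007199m was at 0.559 CPM in heat-stressed plant 2, and the next plant was at 0.269 CPM. Si017178m was at 103 CPM in heat-stressed plant 2, and the next was at 39.7 CPM. Si017761m was at 14.9 CPM in heat-stressed plant 5, and the next was at 4.47 CPM. Si020220m was at 2.22 CPM in heat-stressed plant 5, and the next was at 0.744 CPM. Si022872m was at 2.95 CPM in heat-stressed plant 1, and the next was at 1.59 CPM.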

How the results depend on the processing

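The number of transcripts taken by the rule was 144 at a ratio of at least 2, 19 at 5 and 32 with at least 100 counts, and 62 to 169 when a control plant was left out; it was 87 without control plant 3 and 169 without control plant 5, since fewer plants then had to meet it. Members lower under heat were 20 with at least 10 counts in every plant, where fewer members were tested, and 33 to 41 when a plant was left out. Members higher under heat were 4 by library size only and 4 by library size without psbA, and 1 to 4 when a plant was left out: 1 without control plant 1 or 5 or heat-stressed plant 5 or 6, and 4 without control plant 2. With plant number as a replicate block in edgeR they were 0 (2 at an unadjusted p under 0.05), and those lower were 27; the DESeq2 Wald test, run without the block, gave 2 higher. The numbers pair nothing in the labels, the same-numbered plants correlated at -0.05 to 0.21, and 2 of 5 control plants correlated best with their own number. Members below every control plant were 13 with TMM sizes, 5 with psbA in the library, and 9 to 12 when a heat-stressed plant was left out. The median ratio of the heat mean to control plants 1 and 5 was 0.908 with TMM sizes and 2.11 with psbA, and 1.11 to 1.27 when a heat-stressed plant was left out. The median correlation over heat-stressed plants was 0.10 to 0.30 when 1 was left out, lowest without plant 3. None of the 20 tested members named by rule changed the sign of its log2 fold change; 4 others, not called, did by library size only and, in 3 of them, under further settings. Scaling moved the median of all transcripts, and causes of the other shifts were not tested. Counts under 10 in the low plants limit what can be said of ratios there.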
